A study of Mus musculus with 47 samples.

Results

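The RNA carried by mature mouse spermatozoa was set against the RNA of an adult somatic organ, the liver, in control animals. Members were taken by label: the 2 Ctrl-F1 sperm libraries and the 2 Ctrl-F1 liver libraries, which are 4 of the 47 samples of the series. Ctrl-F1 mice were males of the BDF2 background, 8 to 12 weeks old, obtained by intracytoplasmic sperm injection (ICSI) of testicular sperm from wild-type fathers, so that all 4 libraries come from animals of assisted conception and no gene was deleted in them. The other F1 males of the study, KO-F1, were made in the same way from fathers lacking Scml2, a germline Polycomb protein gene on the X chromosome. Their 2 sperm and 2 liver libraries are used here only as a second set of the same tissues. Scml2 itself had 0 counts in both Ctrl-F1 livers and 0 and 18 counts in the sperm libraries.

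The tissues were not prepared alike. Liver RNA was extracted from whole tissue and made into TruSeq Stranded mRNA libraries. Sperm RNA came from motile cells that had swum up from the cauda epididymis, and was reverse transcribed and amplified by PCR with a SMART-Seq v4 kit before Nextera XT library preparation. Tissue and library kit therefore cannot be told apart in any comparison below, and in bulk samples fewer cells of a type cannot be told apart from less RNA per cell.

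A spermatozoon is the end product of spermatogenesis. Transcription stops while the spermatid elongates, when histones give way to transition proteins and then to protamines, and messages made earlier are stored and translated after that point. The ripe cell sheds most of its cytoplasm and then passes through the epididymis, whose epithelium coats it with secreted proteins. The liver, by contrast, is dominated by hepatocytes, which transcribe plasma protein, clotting factor and metabolic enzyme genes at a high rate.

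The liver libraries held 14278900 and 14023819 counts and the sperm libraries 2426900 and 1503733. A gene with 0 counts may thus lie at up to 0.190 to 0.199 CPM (counts scaled to a common library total, TMM-normalized) in liver and up to 1.24 to 2.40 CPM in sperm, the level of 3 counts, which covers counting error only. The 45S ribosomal RNA precursor gene Rn45s took 20.6% and 28.7% of the sperm counts against 0.636% and 0.706% in liver. Lars2, the mitochondrial leucyl-tRNA synthetase gene, took 3.75% and 5.51% against 0.0822% and 0.0719%. Its share rose with that of Rn45s over the F1 sperm libraries. In KO-F1 spermatozoa Rn45s took 15.7% and 28.6% and Lars2 2.14% and 5.07%. Whether the Lars2 counts are synthetase message was not tested. Shares of counts below leave out both genes where this is said. Across genes, the liver replicates correlated at r = 0.988 on the log2 scale and the sperm replicates at r = 0.755, and the SD of the log2 difference between replicates was 0.466 in liver and 1.96 in sperm. Genes are not independent replicates, and these correlations only describe the libraries.

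Of 13204 genes tested with edgeR, 2461 (18.6%) were higher in spermatozoa and 1529 (11.6%) were lower, at a change of at least 2-fold and an adjusted p below 0.01. The other 9214 genes were not called. The median log2 difference, sperm minus liver, was −0.02 over all tested genes. The counts moved with single libraries, from 1395 higher and 1009 lower without liver replicate 1 (1417 and 1027 without liver replicate 2) to 3271 and 4105 without sperm replicate 1 and 4128 and 4238 without sperm replicate 2. With 2 libraries per tissue, 140 of the 6353 genes with a fitted change under 4-fold were called, and a gene that was not called is not shown to be alike in both tissues. Among the genes called higher in spermatozoa, 1002 had no count in either liver library. Without Rn45s and Lars2, the genes called higher made up 70.8% and 70.5% of the sperm counts and 1.25% and 1.34% of the liver counts. Among the genes called lower, 417 had no count in either sperm library, and the group made up 72.3% and 70.3% of the liver counts and 2.42% and 2.53% of the sperm counts. The calls were made on these same counts, so the shares describe the called sets and are not a separate result.

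**Figure D1:**
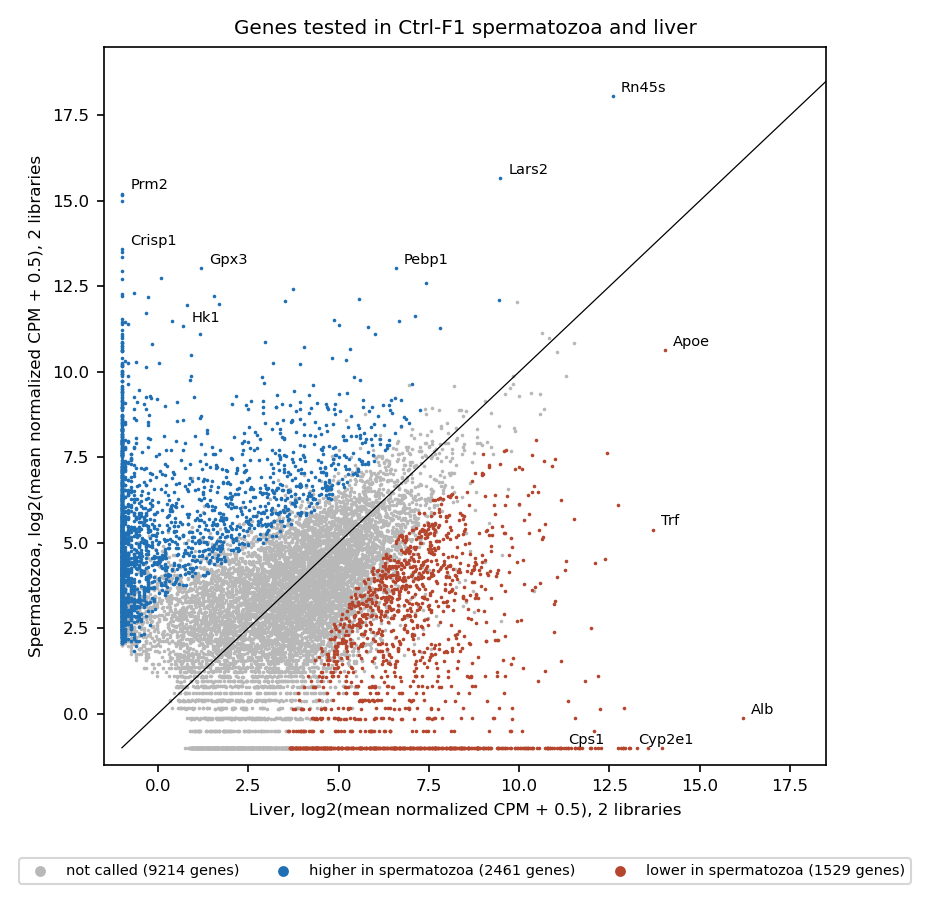
Mean normalized CPM of each tested gene in the 2 liver libraries (x axis) and the 2 sperm libraries (y axis), both as log2 of the value plus 0.5. Blue marks the 2461 genes called higher in spermatozoa, red the 1529 called lower and grey the 9214 not called, and the columns of points along the left and bottom edges are genes with no count in one tissue.

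The KO-F1 libraries gave the same contrast in animals that share no sample with these. There, 2593 of 13076 genes tested (19.8%) were higher in spermatozoa and 2069 (15.8%) were lower. Of the 2461 genes higher in Ctrl-F1 spermatozoa, 2161 could be tested in KO-F1, 2152 had the same sign, 1712 were called the same way and 0 were called the other way. The 1712 are 69.6% of the Ctrl-F1 calls and 66.0% of the KO-F1 calls. Of the 1529 genes lower in Ctrl-F1 spermatozoa, all 1529 could be tested, 1522 had the same sign and 1239 were called the same way, which is 81.0% of the Ctrl-F1 calls and 59.9% of the KO-F1 calls. A test of the difference between both contrasts called 0 of 14415 genes in edgeR, with 2068 genes at an unadjusted p under 0.05 and a smallest adjusted p of 0.152. With 2 libraries per group, 0 calls do not show that both contrasts are alike. The KO-F1 libraries were made with the same kits, so they repeat the tissue and kit contrast together. Without 1 library, the KO-F1 counts ranged from 822 to 3770 higher and from 919 to 4007 lower.

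A stricter description counted the genes present in one tissue only, with at least 10 counts in both of its libraries and at most 3 in each library of the other. Spermatozoa had 1142 such genes, of which 851 were at 0 in both livers, and these genes alone supplied 41.7% and 38.8% of the sperm counts without Rn45s and Lars2. Liver had 1817, of which 1120 were at 0 in both sperm libraries, and they supplied 42.6% and 39.4% of the liver counts on the same basis. In the edgeR test, 1113 of the 1142 genes were called higher in spermatozoa. Of the 1817 genes, 1574 were tested and 604 were called lower, and the rest are not shown to differ. The liver libraries were deeper. When every library was thinned to 1503733 counts, the liver number became 993 and the sperm number 1642. At the other extreme, 5441 genes reached 10 counts in all 4 libraries and carried 47.2% and 51.4% of the sperm counts and 42.6% and 45.7% of the liver counts without Rn45s and Lars2. In KO-F1, 1200 genes met the rule for spermatozoa only and 1163 for liver only. The sets shared 820 and 791 genes, which are 71.8% and 43.5% of the Ctrl-F1 sets and 68.3% and 68.0% of the KO-F1 sets.

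The genes that replace histones in sperm nuclei were among the most abundant. Prm2, a protamine gene, had 45664 and 30313 normalized CPM in the sperm libraries and no count in either liver, and was thus at least 195261-fold higher in spermatozoa. Prm1, the other protamine gene, had 14636 and 8749 CPM against 0 in liver, at least 60099.8-fold higher. Both sperm libraries stood far above both livers for both genes.

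The transition proteins hold the chromatin between histone removal and protamine loading. Tnp2 had 9376 and 6418 CPM and Tnp1 had 1875 and 1279 CPM in the sperm libraries, again with no count in liver. Prm3, H1fnt and Hils1, a protamine-related gene and 2 spermatid linker histone genes, reached 1889.6 and 1859, 582 and 521, and 159 and 114 CPM. Of 9 genes of this chromatin packaging list in the files, 8 were tested and called higher in spermatozoa, with a median log2 difference of 13.11 when genes at 0 in liver are set at their lower bound, against 0.01 over all tested genes treated alike. The ninth member in the files, Hist1h1t, a testis linker histone gene of earlier germ cells, had 1 count in 1 sperm library and was not tested. All 9 had no count in liver, so those tested had passed the filter on low counts through their sperm counts and had to differ. The same holds for each member of the lists below that has no count in one tissue, and the tallies are given as descriptions. Summed over the list, the sperm libraries held 74252 and 49297 CPM and the livers 0.

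Genes of the sperm tail summed to 64618 and 98403 CPM in spermatozoa against 27.3 and 35.0 CPM in liver. Odf1, a main protein of the outer dense fibers, had 25681 and 47838 CPM in spermatozoa and 0 in liver, at least 188947-fold higher. Smcp, which codes for a cysteine-rich protein of the midpiece mitochondria, had 26749 and 38049.8 CPM against 0, at least 166534-fold higher. The second sperm library was the higher one for both tail genes, whereas the first was higher for both protamine genes, so the order of Prm2, Smcp and Odf1 was not the same in the replicates.

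Oaz3, the testis antizyme gene, had 4275 and 5911 CPM in spermatozoa. Liver held 3 and 1 counts of it, and the counted ratio was 37269 (95% interval 14553 to 136797), with 1468 bases shared with Tdrkh on the other strand. Akap4, the principal scaffold of the fibrous sheath, had 1449 and 978 CPM and no count in liver. All 21 tested tail genes were higher in spermatozoa, with a median log2 difference of 8.14 at the bounds.

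**Figure D2:**
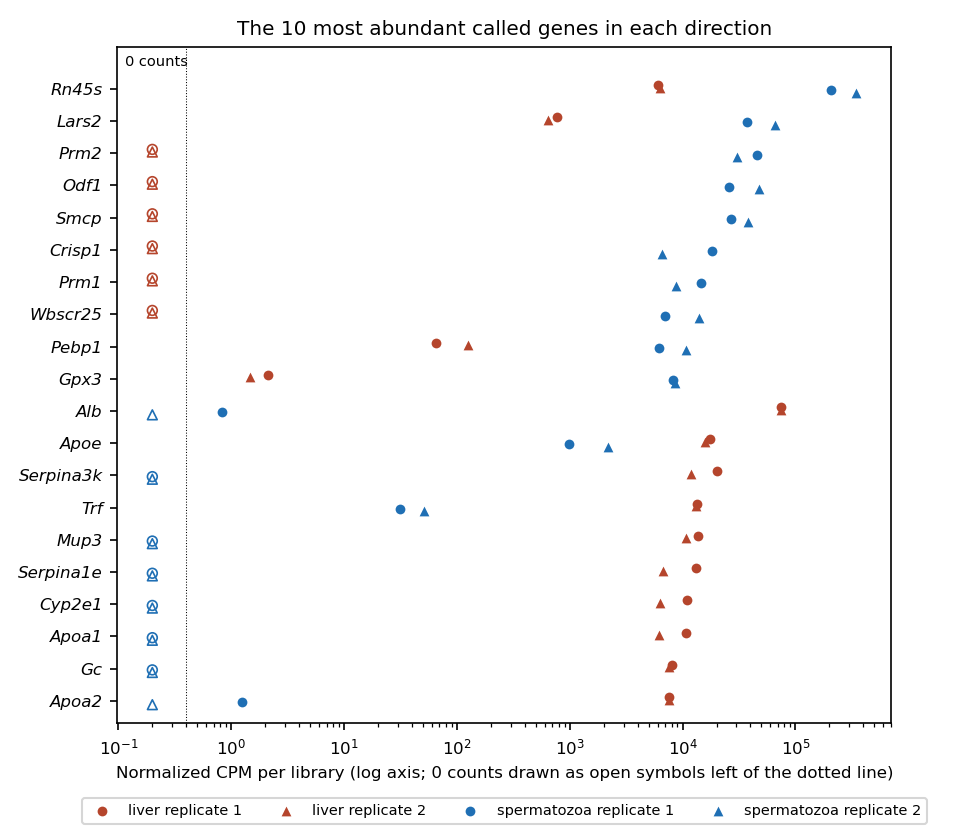
Normalized CPM per library on a log axis for the 10 most abundant genes called in each direction, with circles for replicate 1, triangles for replicate 2, blue for spermatozoa and red for liver, and open symbols left of the dotted line for 0 counts. The replicates of a tissue lie close together compared with the gap between tissues for most genes, and Apoe is the gene called lower that stayed highest in spermatozoa, at 989 and 2207 CPM.

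Axoneme genes, which build and drive the flagellar core, were higher in spermatozoa for 19 of 20 tested members, and summed to 3177 and 2523 CPM. The median level of the list in the sperm libraries was 31.0 and 17.4 CPM per kb of exon, against 55.6 and 61.0 for the tail list. Tppp2, a tubulin-binding protein gene, led the list with 1074 and 1373 CPM, and Meig1 followed with 827 and 357. The heavy dynein gene Dnahc8 had 154 and 130.4 CPM against 0.199 and 0.317 in liver, a log2 difference of 9.03 ± 0.43 (SE; adjusted p = 0.00121). Dnaic1 was the tested member that was not called.

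Of 21 tested acrosome and sperm-egg interaction genes, 16 were higher and 5 were not called. Acrbp, which binds the acrosomal protease precursor, had 237 and 149 CPM against 0.398 and 0.633 in liver (log2 difference 8.51 ± 0.51, adjusted p = 0.00121). Acr, the gene of that protease, had 47.8 and 45.6 CPM and Zpbp, a zona-binding protein gene, 22.7 and 32.8 CPM, with 0 counts in liver. Izumo1, whose protein binds the egg receptor, had 14.4 and 1.60 CPM in spermatozoa and 0 in liver, and was not called (adjusted p = 0.0215). Spaca3, Spaca7, Izumo4 and Dpy19l2 were the other 4 not called. Spam1, a hyaluronidase gene, had 6.18 and 0 CPM and was not tested. In the second sperm library both lay at or below the level of 3 counts, while Crisp2 of the same list had 984 and 1316 CPM.

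Among ion channel and signalling genes, 15 of 19 were higher in spermatozoa and Kcnu1, Hvcn1, Adcy10 and Prkaca were not called. The testis-specific serine kinase genes included abundant ones. Tssk6 had 2588 and 3432 CPM, Tssk2 had 876 and 634 CPM and Tssk3 had 348 and 290.4 CPM, with no count in liver. Tssk3 shares 541 bases with Fam229a on the other strand, which had 892 and 330 counts in spermatozoa, and reads of these bases cannot be told apart without strand. Of the CatSper calcium channel that the flagellum needs for hyperactivation, the subunit gene Catsperg1 had 69.7 and 103 CPM (reads can be split with its close copy Catsperg2) and the pore gene Catsper1 only 7.01 and 4.00 CPM, both with 0 counts in liver. Prkaca, the catalytic subunit of protein kinase A used by many tissues, had 23.1 and 22.4 CPM in spermatozoa and 49.8 and 56.8 in liver.

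Lists of genes known from each step of spermatogenesis were compared next. Compared per kilobase of exon, so that genes of different length can be set side by side, the median level of list members in the sperm libraries was 0 and 0 CPM per kb for spermatogonial genes, 2.25 and 2.25 for meiotic genes, 16.5 and 12.0 for round spermatid genes and 812 and 746 for elongating spermatid genes. Both replicates gave the same order. These lists overlap with the functional lists above, for instance through the protamine genes, and are not independent of them.

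Of 15 spermatogonial genes in the files, only 6 could be tested. Uchl1 was higher in spermatozoa (6.60 and 11.2 CPM against 1 count in liver). Gfra1 was lower (4.53 and 0 against 95.8 and 72.7 CPM), and 4 were not called. Each direction held 16.7% of those tested, beside 18.6% higher and 11.6% lower over all tested genes. The stem cell factor gene Zbtb16 had 0.412 and 9.60 CPM in spermatozoa and 6.70 and 2.03 in liver, with overlapping groups. Of 16 tested meiotic genes 10 were higher (62.5%, against 18.6% over all tested genes) and 6 were not called. Syce2, a synaptonemal complex gene, had 521 and 541 CPM and Hspa2, the meiotic heat shock gene, 296 and 147. Syce2 shares 1060 bases of chromosome 8 with Gcdh on the other strand, and whether the counting used strand is not given in the sources used here. Gcdh had 8 and 8 counts in spermatozoa and 10274 and 9347 in liver. Of 17 round spermatid genes 13 were higher (76.5%), and of 20 elongating spermatid genes 19 were higher (95%), with Gsk3a not called. Gsg1 of the last list had 2403 and 1665 CPM in spermatozoa and none in liver.

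Genes for translational storage and protein quality control were more evenly shared: 15 of 25 were higher in spermatozoa and 10 were not called. Klhl10, a spermatid ubiquitin ligase adaptor gene, had 1049 and 1667 CPM and 0 in liver, and shares 681 bases with Nt5c3l on the other strand. Dnajb3, a spermatid chaperone gene, had 775 and 302 CPM against 1 liver count, and lies inside the Ugt1a genes on the other strand.

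Energy metabolism and other functions, such as translation and protein folding, offered direct pairs of genes. In each, the sperm form serves the germ line or most tissues and its partner serves the liver or somatic cells. For 25 pairs with enough counts, the share of the sperm form in the counts of the pair was computed in each library. The partner was ahead in both livers in all 25 pairs, the sperm form was ahead in both sperm libraries in 15, and its share was higher in both sperm libraries than in both livers in 24, with Slc25a31 as the exception. In 14 pairs both genes were called, in opposite directions. With 2 libraries against 2, an exact two-sided permutation test of a single pair cannot go below p = 0.333, so the pair shares are given without a test. They are shares of reads, not corrected for the length of the genes.

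All 15 tested genes of the germline energy isozyme list were higher in spermatozoa, with a median log2 difference of 9.17 at the bounds. In the glycolytic pairs the sperm form took most of the sperm counts. Pkm, the pyruvate kinase gene of most tissues, reached 100% against Pklr in both sperm libraries and 3.56% and 1.89% in liver. Hk1, a hexokinase gene, had 2288 and 2841 CPM in spermatozoa against 0.796 and 1.46 in liver (log2 difference 11.13 ± 0.57, adjusted p = 0.00121).

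Pgk2, the phosphoglycerate kinase that replaces its X-linked relative Pgk1 in male germ cells, took 99.5% and 99.6% of the pair in spermatozoa and 0 in both livers. Its level was 1656 and 2567 CPM in spermatozoa, whereas Pgk1 fell from 142 and 154 CPM in liver to 7.83 and 9.60 (log2 difference −4.10 ± 0.31, adjusted p = 0.00122). Lactate dehydrogenase was mixed: Ldhc took 75.6% and 73.7% in spermatozoa, and Ldha was still measured there at 287 and 175 CPM against 569 and 433 in liver, which was not called (adjusted p = 0.0525). The glucose transporter gene Slc2a3 took 100% of its pair in both sperm libraries, and its partner Slc2a2 had no count in spermatozoa and 229 and 323 CPM in liver. Gapdhs had 673 and 427 CPM in spermatozoa against 0.995 and 0.887 in liver, but its partner Gapdh had only 34 and 30 counts in the livers. Reads of a gene with many processed copies can be lost in counting of uniquely aligned reads, so the share of this pair is uncertain.

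Fabp9 took 100% of its pair with Fabp1, the liver fatty acid binding protein gene, in both sperm libraries and 0 in both livers. The sperm form took a smaller share in other pairs. The germ cell RNA-binding protein gene Ybx2 took 39.4% and 32.1% against Ybx1, and the chaperone gene Clgn 24.0% and 17.1% against Canx. Psma8, the germ cell proteasome subunit gene, took 24.3% and 8.70% against Psma7. Calr3 took only 1.05% and 0.722% against Calr, compared with 0.313% and 0.270% in liver. The sperm replicates differed by more than their counting intervals in several of these, for example 62.1% and 28.1% for Pdha2 and 61.6% and 27.7% for Capza3.

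**Figure D3:**
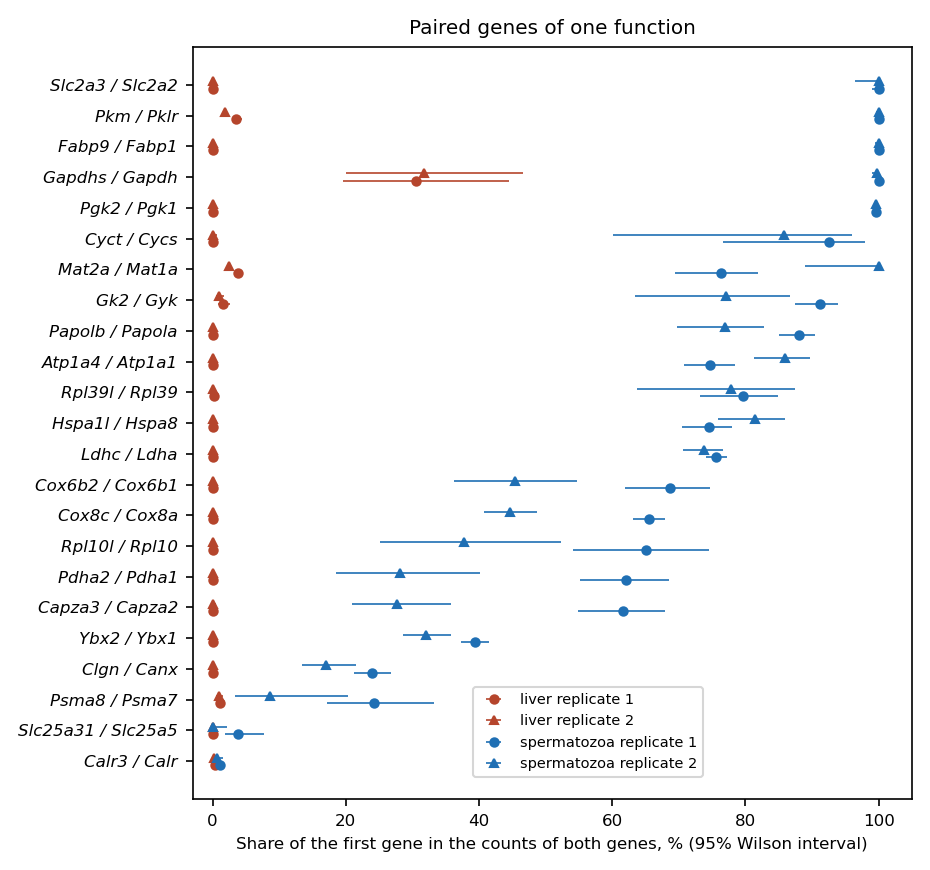
Share of the first named gene in the counts of both genes, for 23 of the 25 pairs, in percent, per library, with 95% Wilson intervals that cover counting error only (red, liver; blue, spermatozoa; circles, replicate 1; triangles, replicate 2). The liver points stay near 0 except for Gapdhs, and the sperm points run from near 0 for Calr3 and Slc25a31 to 100% for Fabp9, Slc2a3 and Pkm.

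The most abundant liver genes were those of secreted plasma proteins. Alb, the serum albumin gene, had 74602 and 74285 CPM in liver and 2 and 0 counts in spermatozoa, a counted ratio of 136810.2 (95% interval 37873 to 1129687). Apoa1, the main protein of high-density lipoprotein, had 10825 and 6179.7 CPM in liver and no count in spermatozoa, at least 4676-fold lower there. Serpina3k, a protease inhibitor gene, had 20071 and 11799 CPM and Mup3, a major urinary protein gene, 13659 and 10666 CPM in liver, with 0 counts in both sperm libraries. Uniquely aligned reads of Serpina1, Serpina3 and Mup genes can be split between near-identical copies, so the level of one copy is uncertain.

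All 37 tested plasma protein genes were lower in spermatozoa (median log2 difference at the bounds −10.43). The list summed to 241545 and 208501 CPM in liver and to 1183 and 2375 in spermatozoa. Most of that remainder was Apoe, the apolipoprotein E gene, with 989 and 2207 CPM in spermatozoa against 17516 and 15874 in liver (log2 difference −3.39 ± 0.59, adjusted p = 0.00860). Many cell types other than hepatocytes express Apoe. Apoe, Trf, Fetub, Azgp1 and Cp were the 5 plasma protein genes with at least 10 counts in both sperm libraries. Trf, the transferrin gene, had 31.3 and 51.2 CPM there, and Azgp1 had 45.8 and 25.6.

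Clotting and complement genes were lower in spermatozoa for 27 of 28 tested members (median at the bounds −7.56). Fgb, the fibrinogen beta chain gene, had 3952 and 2834 CPM in liver and none in spermatozoa, and C3, the central complement gene, had 5664 and 4946 CPM against 21.0 and 24.0 (log2 difference −7.89 ± 0.44, adjusted p = 0.00121).

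Metabolic lists were also lower in spermatozoa. Bile acid and cholesterol genes were lower in 20 of 21 tested members, with Nr0b2 not called. Slc27a5, a bile acid ligase gene, had 1051 and 941 CPM in liver and 0 counts in spermatozoa, and Cyp7a1, which starts bile acid synthesis, had 112 and 146 CPM against 0 and 2 counts. Of 26 tested urea cycle and amino acid genes 25 were lower. Cps1, the entry enzyme of the urea cycle, had 2063 and 2361 CPM in liver and none in spermatozoa, at least 1216-fold lower. Glul, the glutamine synthetase gene used by many cells, had 408 and 273 CPM in spermatozoa against 680.4 and 716 in liver and was not called (adjusted p = 0.0443).

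Of 19 glucose and fructose genes 17 were lower, with Ppp1r3b and Ppp1r3c not called. Pck1, which commits carbon to gluconeogenesis, had 2642 and 2602 CPM in liver and none in spermatozoa. Of 24 fatty acid oxidation and ketogenesis genes 21 were lower. Acsl1, which activates long-chain fatty acids, was at a similar measured level in both tissues: 662 and 935 CPM in spermatozoa and 940.2 and 871 in liver, a log2 difference of −0.18 ± 0.31 (adjusted p = 0.651). Cpt1a and Acadl were the other 2 not called.

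Of 30 drug and steroid metabolism genes 28 were lower in spermatozoa, and 2 were not called. Cyp2e1, an ethanol-inducible cytochrome P450 gene, had 10931 and 6335 CPM in liver and 0 counts in spermatozoa, at least 4747-fold lower. Cyp3a11, a main drug-oxidizing P450, had 6359 and 8779 CPM and none in spermatozoa. Cyp4a14 was at 0 in spermatozoa but spread from 13.2 to 135 CPM in the livers and was not called (adjusted p = 0.0359). Adh1, an alcohol dehydrogenase gene, was still measured in spermatozoa, with 61.8 and 89.6 CPM against 2314 and 2275.

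Hepatocyte transcription factor genes gave fewer calls: 12 of 22 tested were lower in spermatozoa and 10 were not called. Hnf4a, a nuclear receptor central to hepatocyte identity, had 519 and 520.4 CPM in liver and 0 counts in spermatozoa, at least 286-fold lower. Cebpa had 426 and 427 CPM against 6.18 and 30.4 (log2 difference −4.63 ± 0.78, adjusted p = 0.00784). Cebpb, which is widely expressed, had 59.4 and 107 CPM in spermatozoa and 92.3 and 58.1 in liver, with overlapping groups.

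**Figure D4:**
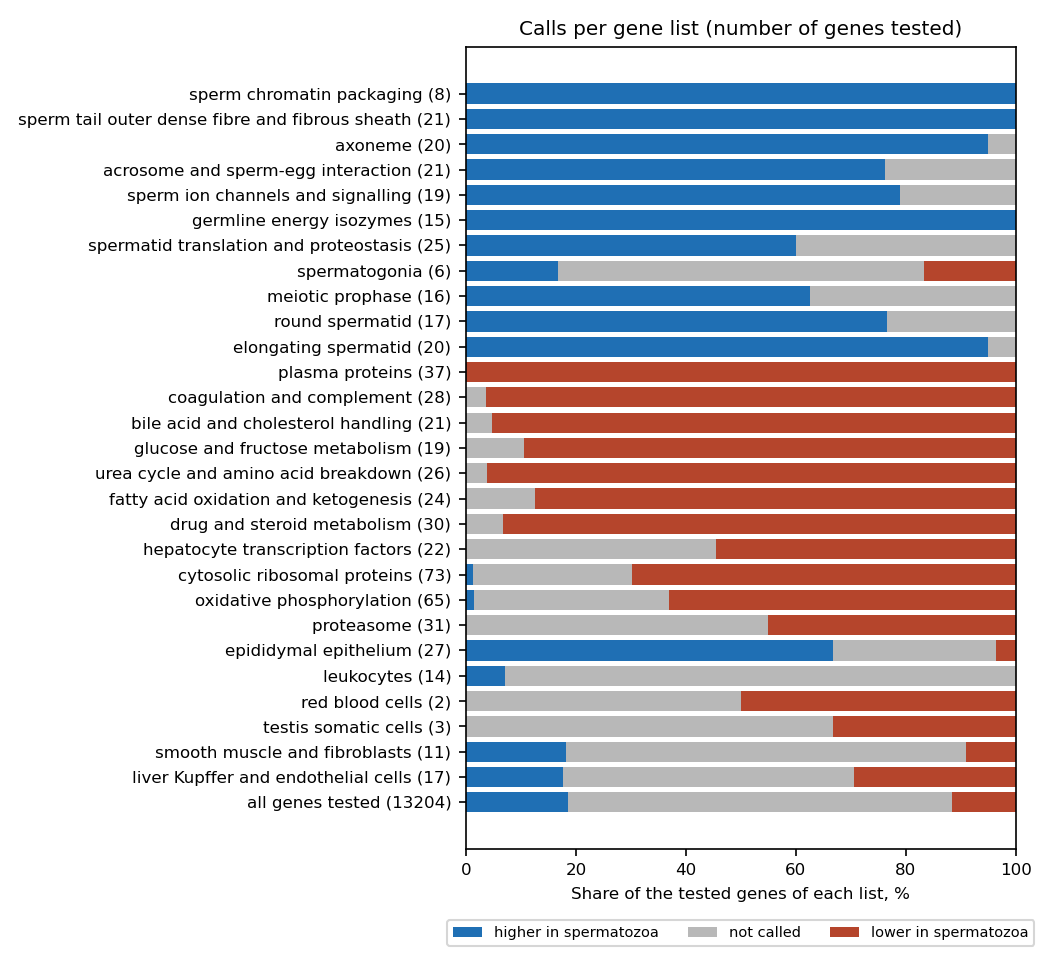
Share of the tested genes of each list that were called higher in spermatozoa (blue), not called (grey) or called lower (red), in percent, with the number of tested genes in brackets. The sperm lists run from 60.0% to 100% higher, the liver lists from 54.5% to 100% lower, and all 13204 tested genes stand at 18.6% and 11.6%.

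Promoters were searched for the letters of the HNF1, HNF4 and C/EBP sites and of general elements. The sequences are RefSeq promoters of GRCm38.p6, from 250 bases before to 50 after the start, and 27025 genes had one. The first 9 letters of the HNF1 site, GTTAATNAT on either strand, stood in 2.58% of promoters of genes lower in spermatozoa, in 0.782% of those higher, in 0.446% of those not called and in 0.940% of all promoters. Among members of the liver lists with a promoter, 11 of 157 (7.01%) held it, and 0 of 110 members of the sperm lists did. The 4 shown are Alb, Gc (a vitamin D carrier gene with 8025 and 7589 CPM in liver and none in spermatozoa), Fga (the fibrinogen alpha chain gene) and Slco1b2 (a bile salt and drug importer gene with 1183 and 1242 CPM and none), because they show the letters 32 to 66 bases before the start of abundant liver genes. Each sequence runs 5′ to 3′ on the strand of its gene, from 100 bases before the start to 20 after, with the motif in capitals.
Alb, chr5:90460770-90460889, + strand, motif beginning 32 bases before the start: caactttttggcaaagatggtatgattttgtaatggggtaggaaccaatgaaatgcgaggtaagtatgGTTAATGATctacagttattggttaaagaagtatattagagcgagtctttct
Gc, chr5:89457879-89457998, − strand, motif beginning 52 bases before: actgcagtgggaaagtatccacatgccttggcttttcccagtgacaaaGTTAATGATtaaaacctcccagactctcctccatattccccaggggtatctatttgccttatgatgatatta
Fga, chr3:83026053-83026172, + strand, motif in the other orientation, 46 bases before: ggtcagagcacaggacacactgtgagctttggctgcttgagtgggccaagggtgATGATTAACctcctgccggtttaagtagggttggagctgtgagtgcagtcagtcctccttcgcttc
Slco1b2, chr6:141629418-141629537, + strand, motif beginning 66 bases before: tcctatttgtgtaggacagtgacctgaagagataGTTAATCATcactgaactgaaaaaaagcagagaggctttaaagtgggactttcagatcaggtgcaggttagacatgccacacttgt

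A match describes letters only and is not evidence of binding. The HNF4 letters CAAAGTCCA stood in 1.5% of promoters of genes lower in spermatozoa, 0.678% of those higher and 0.555% of all. The C/EBP letters TTGCNCAA stood in 3.99% of those lower, 2.87% of those higher, 2.89% of those not called and 3.37% of all, and in 10 of 157 liver and 3 of 110 sperm list members. TATAAA stood in 13.4% of those lower, 10.8% of those higher, 8.55% of those not called and 15.7% of all promoters, genes too low to test included, and among the list members in 43 of 157 liver genes (27.4%) and 8 of 110 sperm genes (7.27%). The letters GGGCGG, the GC box, stood in 52.1% of promoters of genes higher, 58.2% of those lower and 69.3% of those not called. Over all promoters, genes too low to test included, the share was 38.2%, below each of these sets.

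On the sperm side, the first 9 letters of the X-box, GTTGCCATG, stood in 1.82% of promoters of genes higher in spermatozoa, 0.666% of those lower and 0.877% of all. Among list members it stood in 0 of 110 sperm genes and 1 of 157 liver genes, Hnf4a. The cAMP response element TGACGTCA, the site of the spermatid activator CREM, stood in 2.82%, 2.33% and 2.03%, and in 3.67% of those not called. A promoter of each kind is shown in the same way. Tcp11, a testis gene of sperm motility, had 2858 and 2776 CPM in spermatozoa and no count in liver, and 1 of its 3 promoters holds the X-box letters. Ccin, the gene of the sperm head cytoskeletal protein calicin, had 42.5 and 39.2 CPM and no count in liver. Both were chosen after their values were seen.
Tcp11, chr17:28079745-28079864, − strand, X-box letters beginning 71 bases before the start: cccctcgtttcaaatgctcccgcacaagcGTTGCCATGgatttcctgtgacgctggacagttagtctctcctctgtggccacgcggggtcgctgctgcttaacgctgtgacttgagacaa
Ccin, chr4:43983404-43983523, + strand, cAMP response element beginning 50 bases before: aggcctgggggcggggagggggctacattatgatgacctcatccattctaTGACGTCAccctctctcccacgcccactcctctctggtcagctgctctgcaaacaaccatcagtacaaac

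Genes that every cell uses were also unequal. Of 73 tested cytosolic ribosomal protein genes 51 were lower in spermatozoa, 1 was higher and 21 were not called, with a median log2 difference of −2.72. The list summed to 3295 and 3764 CPM in spermatozoa and 10883 and 11065 in liver. Rps10 had 109 and 108 CPM in liver and no count in spermatozoa. Rpl29 went the other way, with 81.2 and 121 CPM in spermatozoa against 9.95 and 17.5. Reads of ribosomal protein genes are shared with many processed copies, so single members are uncertain.

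Of 65 oxidative phosphorylation genes 41 were lower, 1 was higher and 23 were not called (median −2.33), and of 31 proteasome genes 14 were lower and 17 were not called (median −1.71). Sdhb, a succinate dehydrogenase gene, had 303 and 311 CPM in liver and 12.8 and 16.8 in spermatozoa. Psmb5, a catalytic proteasome subunit gene, had 35.9 and 56.0 CPM in spermatozoa and 45.0 and 40.7 in liver, with overlapping groups. These counts depended on the fit: with limma-voom and quality weights 24 ribosomal, 14 oxidative phosphorylation and 1 proteasome genes were lower.

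The one oxidative phosphorylation gene called higher in spermatozoa was Ndufa13, a complex I subunit gene, with 409 and 538 CPM against 167 and 139. It lies on chromosome 8 from 69894163 to 69902558 on the − strand and shares 375 bases with Tssk6, which starts at 69902184 on the + strand. Tssk6 had 6278 and 4290 counts in spermatozoa and 0 in liver, and Ndufa13 had 992 and 673 counts in spermatozoa. Counted without strand, reads of the shared bases cannot be told apart, and the call was lost under 8 of the alternative settings.

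Sperm collected from the cauda can carry other cells or the secretions of the duct, and markers of those cells were measured. Of 41 epididymal epithelium genes in the files 27 were tested, 18 were higher in spermatozoa, 1 (Aqp9) was lower and 8 were not called. The list summed to 35036 and 22406 CPM in the sperm libraries against 996 and 921 in liver, or to 16773 and 15851 without Crisp1. Crisp1, a secreted protein that coats sperm in the epididymis, had 18262 and 6555 CPM in spermatozoa and none in liver, at least 63781-fold higher. Its level differed widely between both sperm libraries.

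Gpx3, a secreted glutathione peroxidase gene, had 8230.0 and 8586 CPM in spermatozoa against 2.12 and 1.46 in liver (log2 difference 12.19 ± 0.59, adjusted p = 0.00121). Spink8, Adam7 and Ces5a, all made by the epididymal epithelium, had 2300.2 and 1143, 1540.1 and 987, and 1197 and 774 CPM. Markers of the epithelial cells themselves were measured too: Epcam had 228 and 142 CPM in spermatozoa and Krt19 had 59.4 and 49.6, both above liver. Of 43 beta-defensin genes in the files, a family secreted along the duct, 41 had no count in either liver. The 16 that passed the filter did so almost wholly through their sperm counts, and 15 were called higher there. Whether these RNAs lie in spermatozoa or in other cells of the preparation was not tested here.

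Cd52, a surface antigen gene of leukocytes that the epididymal epithelium also expresses, had 6721 and 2872 CPM in spermatozoa against 2.52 and 2.28 in liver. It was the 1 leukocyte gene of 14 tested that was called (7.14%, against 18.6% higher over all tested genes). Without it, the 24 leukocyte genes in the files summed to 507 and 1319 CPM in spermatozoa and 195 and 302 in liver. Lyz2, a macrophage lysozyme gene, had 47.8 and 323 CPM in the sperm libraries, and Cd74, of antigen-presenting cells, 139 and 294. Both were higher in the second sperm library.

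Smooth muscle and fibroblast genes showed 2 higher in spermatozoa (Cnn1 and Col1a1), 1 lower (Fn1) and 8 not called of 11 tested, near the shares of 18.6% and 11.6% over all tested genes. Col1a1, a collagen gene, had 33.0 and 83.2 CPM against 2.32 and 1.52. Of 14 testis somatic cell genes 8 had no count in either sperm library and 3 were tested, of which Ctsl was lower in spermatozoa. Of 17 tested liver genes of Kupffer, endothelial, stellate and bile-duct cells, 5 (Clec4f, Cd5l, Vsig4, Clec4g and Reln) were lower in spermatozoa, or 29.4%. The 3 that were higher (Krt7, Krt19 and Epcam) are also markers of other epithelia. They are 17.6% of the tested list, near the 18.6% over all tested genes. Of the red cell genes Alas2 was lower in spermatozoa (1.65 and 1.60 CPM against 209 and 221) and Beta-s was not called.

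Some abundant sperm RNAs belonged to none of the lists. Pebp1, a phosphatidylethanolamine-binding protein gene, had 6237 and 10644 CPM in spermatozoa against 65.4 and 125 in liver (log2 difference 6.47 ± 0.65, adjusted p = 0.00203). Wbscr25, a long noncoding RNA in RefSeq, had 7030.0 and 13899 CPM and no count in liver. It shares 44 bases of chromosome 5 with Cldn3 on the other strand, an epithelial claudin gene with 1996 and 3083 CPM in spermatozoa and 58.7 and 52.1 in liver. The uncharacterized gene 1700012A03Rik had 5200.2 and 8361 CPM and none in liver, and 1700027A15Rik, a long noncoding RNA, had 1803 and 1681.

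The genes called higher in spermatozoa are described by kind, without a test. Long noncoding RNAs made up 8.59% of those matched to RefSeq, against 0.591% of the genes called lower and 2.1% of those not called. Genes with a single exon made up 8.35%, 0.526% and 2.13%. Names of the Rik or Gm series, given to genes without an assigned function, made up 18.0%, 2.22% and 5.40%. The median exon length was 2210.5, 2489 and 3160 bases, and the kits differ in how they cover a message along its length. Single-exon genes can also collect reads from genomic DNA, which was not tested. Gm5617 had 5507 and 5465 CPM in spermatozoa against 14.6 and 11.1, 4930571K23Rik had 4023 and 5544 against 0, and the heat shock gene Hspb9 had 2514 and 3148 against 0 and 1 counts. On the X chromosome, 71 of 374 tested genes were higher in spermatozoa and 45 were lower, near the shares over all genes.

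Gene families of the liver and the male tract lay side by side in places. On chromosome 12, 19 Serpina genes with at least 10 counts in a library lie within 797.66 kb. Of these, 12 were lower in spermatozoa and 1, Serpina1f, was higher. Serpina1f had 14935 and 4681 counts in spermatozoa and 0 in liver, at least 25448-fold higher. Its neighbor on one side, Serpina6, the corticosteroid-binding globulin gene, had 0 counts in spermatozoa and 4964 and 5085 in liver. On the other side, Serpina1b had 1 and 0 counts in spermatozoa and 73712 and 59938 in liver. The cluster was chosen for display after these values were seen.

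**Figure D5:**
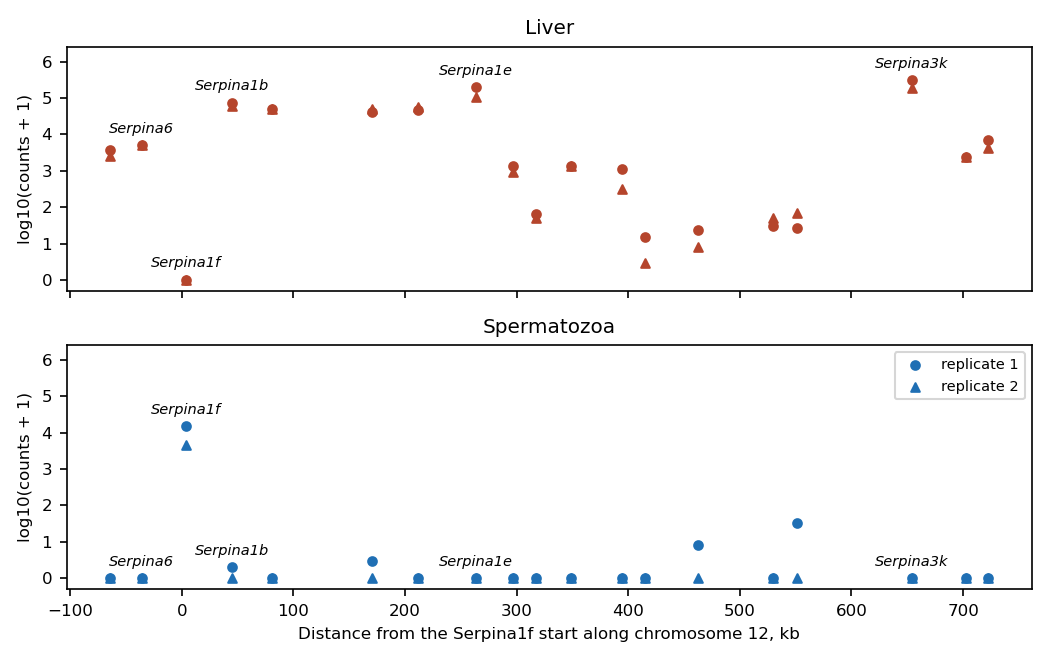
Counts per library, as log10 of the count plus 1, of the Serpina genes of chromosome 12, placed by distance in kb from the start of Serpina1f (top, liver; bottom, spermatozoa; circles, replicate 1; triangles, replicate 2). Serpina1f has 14935 and 4681 counts in spermatozoa and none in liver, while the neighbors Serpina6 and Serpina1b show the reverse.

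The glutathione transferase genes of the Gstm group on chromosome 3 were divided in a similar way. Gstm5 had 3352 and 5265 CPM in spermatozoa against 10.8 and 11.3 in liver (log2 difference 8.61 ± 0.51, adjusted p = 0.00121). Gstm2 and Gstm7 were also higher, with 278 and 246 and 249 and 313 CPM in spermatozoa. Gstm3 had no count in spermatozoa and 85.5 and 119 CPM in liver, and Gstm4 was lower as well. Gstm1 (320.3 and 646 against 1404 and 1875 CPM) and Gstm6 were not called. These genes are close relatives, so that reads may be lost or divided among them.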

How the data were processed

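The deposited values were counts of uniquely aligned reads per gene, which the authors made with HISAT2 2.1.0 on GRCm38/mm10 and featureCounts. The gene annotation and the strand setting are not given in the sources used here. Each file had 23420 lines, and 4 lines with 2 repeated symbols were left out. Replicates are independent biological samples by the study's methods, with 2 per group.

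Counts were tested in edgeR 4.0.16 (R 4.3.3) with TMM factors, its default filter on low counts (10 in a library, 15 in all) and the quasi-likelihood test, with Benjamini-Hochberg adjustment. Called genes had at least a 2-fold change and an adjusted p below 0.01. CPM are TMM-normalized. Genes at 0 in one tissue are given as a bound at 3 counts per library, and genes with 1 to 3 counts there as a ratio with an exact 95% interval. The PCR reads carry no molecular identifiers, so intervals cover counting error only. The fit was tested on simulated data. Alternatives included DESeq2 1.42.0, limma 3.58.1, other scalings, filters, thinning and leaving out a library. Of the 23416 genes, 99.1% matched RefSeq GRCm38.p6.

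The members and gene lists were chosen with earlier results of these data known. Named genes were the 3 most abundant of each list, opposite calls, the 10 most abundant called or tissue-only genes per direction, all pairs, the extremes of the shared lists, Rn45s and Lars2. Others named were chosen after their values were seen. Some genes are not reported here.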

Additional observations from a re-analysis of the deposited data

How the results depend on the processing

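The sperm libraries were shallower than the liver libraries, gave more of their counts to Rn45s and differed more from each other. What each of these did to the precision was not tested. Main numbers were 2461 genes higher and 1529 lower in spermatozoa. DESeq2 gave 2326 lower, 1 model of all 4 F1 groups gave 2457 lower, an adjusted p below 0.05 gave 3752 higher and 3149 lower, and requiring 10 counts in every library, with 5441 genes tested, gave 1028 higher and 959 lower. Leaving out 1 library gave 1395 to 4128 higher and 1009 to 4238 lower. The low ends came without liver replicate 1 (1395 and 1009) or 2 (1417 and 1027) and the high ends without sperm replicate 1 (3271 and 4105) or 2 (4128 and 4238), where the lone library is assumed to vary like those left in the other tissue. In KO-F1 the ranges were 822 to 3770 higher and 919 to 4007 lower. The low ends again came without liver replicate 1 (842 and 919) or 2 (822 and 921), and without sperm replicate 1 or 2 there were 3991 and 4007 lower. Genes in spermatozoa only numbered 602 at a minimum of 30 counts, and 1196 to 1900 over the libraries left out, with 1900 without sperm replicate 2. Genes in liver only numbered 1120 at 0 counts in spermatozoa, 993 after thinning and 1904 to 3414 over the libraries left out, with 3414 without sperm replicate 1.

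The replicate number as a block gave 1815 higher and 1289 lower. The labels do not say whether same-numbered liver and sperm libraries came from the same male. The correlation of their deviations was 0.0367, which cannot decide this, as the tissues differ. Scaling by library totals moved the median log2 difference to −0.26 with 2266 higher and 1711 lower, and upper-quartile factors moved it to 0.14 with 2591 and 1391. Of the 111 named genes that were called, none changed sign in any setting in which they were tested, and 20 lost the call in at least 1. Many of them had no or few counts in the other tissue, so their sign could hardly change. With 10 counts required in every library, only 55 of the 138 named genes were tested.

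The named genes that changed sign were all uncalled, and the values are log2 differences. Under library totals, no filter, 10 counts in every library and 1 model of all groups, in that order, Beta-s was −0.067, −0.033, −0.115 and −0.028 and Psmb5 −0.177, −0.093, −0.201 and −0.117. Removing Rn45s and Lars2 gave −0.049 for Psmb5 and −0.124 for Zbtb16. Zbtb16 was also −0.234 under totals, −0.087 with no filter, −0.394 with the replicate block and −0.173 in 1 model of all groups. Thinning gave Calr 0.229 and Canx 0.058, and 10 counts in every library gave Capza2 −0.0058. With 1 library left out, Beta-s ranged from −0.33 to 0.70, Psmb5 from −0.31 to 0.18, Zbtb16 from −3.42 to 1.21, Capza2 from −0.48 to 0.61 and Star from −7.10 to 0.33. The cause was not tested.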
